A study of Mus musculus with 6 samples.

Results

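The scavenger receptor family is described by 10 genes taken by symbol from a list of receptors known from lipid-loaded macrophages, out of 46078 gene identifiers counted. They are the class B receptors *Cd36*, *Scarb1* and *Scarb2*, the class A receptors *Msr1* and *Marco*, the oxidized LDL receptor *Olr1*, the receptors *Mrc1*, *Stab1* and *Cd163* that are typical of perivascular macrophages, and *Cd68*, a glycoprotein of macrophage endosomes. The list was drawn up by name rather than by a threshold on these values, but with earlier results of these data known. The study that reported the data had already named *Cd36*, *Msr1*, *Scarb2* and *Cd68* as upregulated in infarcts against contralateral cortices.

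Scavenger receptors are membrane proteins that bind modified lipoproteins, dying cells, myelin debris, haemoglobin complexes and denatured collagen, and that deliver them to endosomes and lysosomes. When a macrophage takes up more lipid through these receptors than it can break down or export, the surplus is stored in droplets and the cell becomes a foam cell, as in the atherosclerotic plaque. In the brain, microglia and the macrophages of the meninges and perivascular spaces carry several of these receptors at rest, and macrophages recruited to injured tissue carry more. The data below are transcript levels, and neither receptor protein nor stored lipid was measured in them.

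The tissue came from wild type C57BL/6J mice aged 3 months, male per the methods of the study, 7 weeks after stroke produced by occluding a distal branch of the middle cerebral artery and adding hypoxia. RNA-Seq of polyadenylated RNA was performed on 3 chronic stroke infarcts, and on 3 contralateral cortices, that is, the matching region of the other hemisphere of stroked mice. No unoperated mouse is among the 6 libraries, and the labels neither link an infarct to the contralateral cortex of its own animal nor say whether animals were pooled, so the *p* values measure the spread between these libraries. Both regions are whole tissue, in which more cells of a type and more RNA per cell cannot be told apart.

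Counts on genes ranged from 12146959 to 13427057 per infarct library and from 11943570 to 19933962 per contralateral library, and intervals from counts cover counting error only. The share of counts on mitochondrial genes was 2.71% to 3.55% in infarcts, against 5.50% to 6.66% contralaterally. Marker genes shared by microglia and macrophages summed to 3218 to 4604 CPM (counts scaled to 1000000 per library) in infarcts, against 220.3 to 295 CPM contralaterally, so microglia or macrophages had RNA in both regions. These markers do not tell lipid-loaded macrophages from other macrophages or from microglia. Markers of neurons summed to 686 to 1811 CPM in infarcts and to 9772 to 10648 in contralateral cortices. Infarct 3 held the most neuronal marker RNA and the least microglia and macrophage marker RNA of the 3 infarcts.

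A gene was called upregulated at an adjusted *p* under 0.05 (edgeR quasi-likelihood test, Benjamini-Hochberg adjustment over 15554 tested genes) with a log2 fold change above 1, that is, more than 2-fold. Of the 10 receptor genes, 8 were upregulated in infarcts, none was downregulated, *Cd163* was not called and *Marco* was too low to be tested. The background is large in this comparison: 25.7% of all tested genes were upregulated and 20.9% were downregulated. All 8 upregulated receptor genes were also higher in each infarct than in any contralateral cortex, a pattern that 37.6% of tested genes showed. The median log2 fold change over the 9 tested receptor genes was 3.57, against 0.03 over all tested genes. *Msr1* and *Olr1* had at most 8 counts in any contralateral library and passed the filter on low counts through the infarcts, so they could only be tested as higher there.

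**Figure D1:**
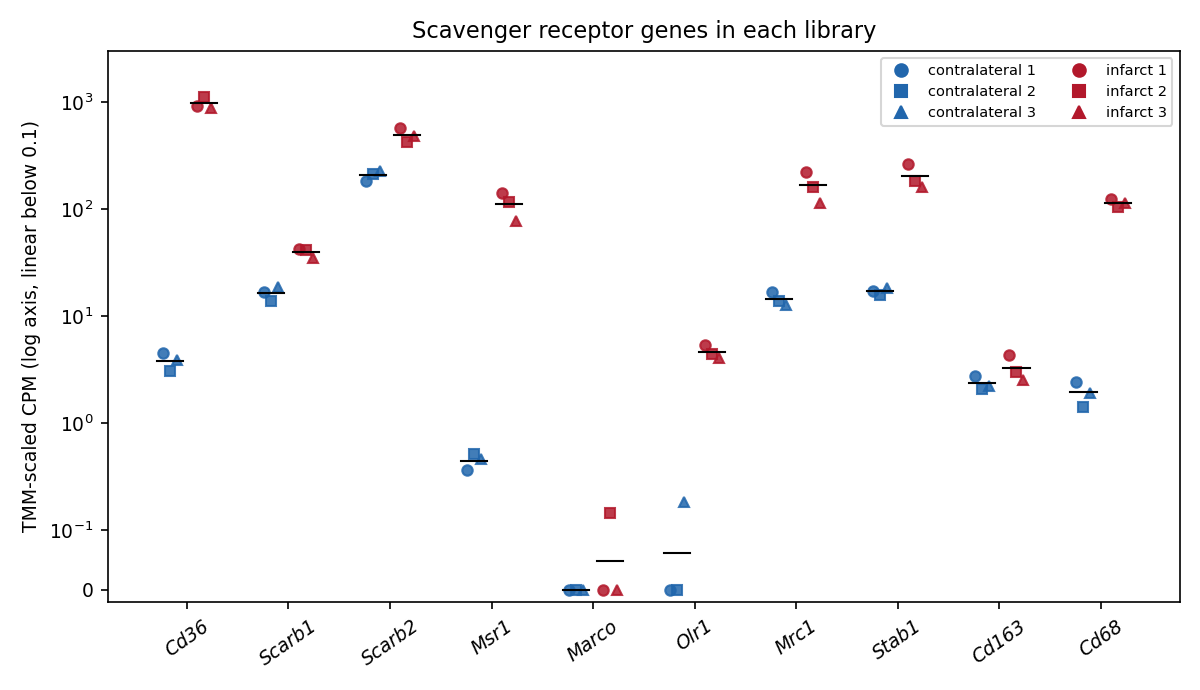
Normalized level of each of the 10 genes (x axis) in each of the 6 libraries, in TMM-scaled CPM on an axis that is logarithmic above 0.1 and linear below it. Blue symbols are contralateral cortices, red symbols are infarcts, the symbol shape gives the replicate number and the black bar is the mean of 3 libraries; the regions overlap for *Cd163* and *Marco* and are apart for the other 8 genes.

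*Cd36* encodes the fatty acid and oxidized LDL receptor of macrophages, which with Toll-like receptors 4 and 6 also starts an inflammatory response. The gene (ENSMUSG00000002944, GRCm38 chromosome 5, 17781690 to 17888801, minus strand) had 915, 1110.2 and 880.5 CPM in infarcts 1 to 3, and 4.54, 3.06 and 3.88 CPM in contralateral cortices 1 to 3. The 3 infarcts lay within 1.26-fold of each other and every one was more than 100-fold above every contralateral cortex. The log2 fold change was 7.98 with a standard error (SE) of 0.20 and a 95% interval of 7.53 to 8.42 (adjusted *p* = 1.46e-07, edgeR), which is a 252-fold difference.

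The lysosomal receptor gene *Scarb2* (ENSMUSG00000029426, chromosome 5, 92441314 to 92506833, minus strand), whose product lies in the lysosomal membrane, is expressed by many cell types. It had 574, 423 and 485 CPM in infarcts, and its contralateral values were 184, 211 and 226 CPM. No infarct overlapped a contralateral cortex, and the log2 fold change was 1.26 (SE 0.17, 95% interval 0.88 to 1.64, adjusted *p* = 1.30e-04, edgeR). *Scarb1* (ENSMUSG00000037936, chromosome 5, 125277087 to 125341094, minus strand), the HDL receptor that takes up cholesterol esters, had 42.0, 41.5 and 34.6 CPM in infarcts. Its contralateral values were 17.0, 13.9 and 18.6 CPM, again without overlap, and its log2 fold change was also 1.26 (SE 0.17, 95% interval 0.87 to 1.65, adjusted *p* = 1.59e-04, edgeR). Both intervals reach below 1, and neither gene passed when the test asked for a change beyond 2-fold rather than for any change (edgeR glmTreat, adjusted *p* = 0.0645 for *Scarb2* and 0.0698 for *Scarb1*). The interval of *Cd36* did not overlap that of either gene of its class.

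*Msr1* (ENSMUSG00000025044, chromosome 8, 39581685 to 39642673, minus strand) encodes the class A receptor for acetylated and oxidized LDL. It had 141, 116 and 77.4 CPM in infarcts, from 1769, 1575 and 1134 counts. In contralateral cortices it had 0.366, 0.521 and 0.461 CPM, from 7, 8 and 5 counts, so the transcript was near the detection limit in cortex outside the infarct. The log2 fold change was 7.94 (SE 0.36, 95% interval 7.14 to 8.75, adjusted *p* = 1.64e-07, edgeR), and its interval overlapped that of *Cd36*. For each 100 *Cd36* counts there were 8.79 to 15.4 *Msr1* counts in infarcts, against 8.05 to 17.0 contralaterally, so the ratio between these 2 genes overlapped between regions.

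*Marco* (ENSMUSG00000026390, chromosome 1, 120474538 to 120505024, minus strand), the other class A receptor, which marks macrophages of the splenic marginal zone and the lung, had 2 counts in infarct 2 and 0 counts in the other 5 libraries. A count of 0 allows up to 0.157 to 0.277 CPM in these libraries when 3 counts are taken as the limit. *Marco* transcripts were thus not detectable above that limit in either region.

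*Olr1* (ENSMUSG00000030162, chromosome 6, 129485244 to 129507165, minus strand) encodes the lectin-like oxidized LDL receptor of endothelial cells and macrophages. It had 68, 61 and 60 counts in infarcts, or 5.42, 4.48 and 4.10 CPM, and 0, 0 and 2 counts in contralateral cortices. All infarcts were above all contralateral cortices (adjusted *p* = 3.09e-05, edgeR). The pooled ratio of scaled counts was 105-fold with an exact 95% counting interval of 28.7 to 873, and a fitted fold change is not given because it depends on how the zeros are treated.

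*Mrc1* (ENSMUSG00000026712, chromosome 2, 14229392 to 14332057, plus strand) encodes the mannose receptor, and *Stab1* (ENSMUSG00000042286, chromosome 14, 31139013 to 31168641, minus strand) encodes stabilin-1, a receptor for the matrix protein SPARC. In infarcts *Mrc1* had 223, 162 and 113 CPM, against 16.7, 13.9 and 12.7 CPM contralaterally (log2 fold change 3.51, SE 0.24, 95% interval 2.97 to 4.05, adjusted *p* = 3.64e-06, edgeR). In infarcts *Stab1* had 264, 182 and 161 CPM, against 17.1, 15.8 and 18.2 CPM contralaterally (log2 fold change 3.57, SE 0.19, 95% interval 3.14 to 4.01, adjusted *p* = 7.16e-07, edgeR). Neither gene overlapped between the regions. There were 113 to 143 *Stab1* counts per 100 *Mrc1* counts in infarcts, against 102 to 143 contralaterally, so this pair kept overlapping proportions. Of the *Stab1* exon bases, 1.09% are also covered by the opposite-strand gene *Nt5dc2*, and no exon of the other 9 genes is shared.

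*Cd163* (ENSMUSG00000008845, chromosome 6, 124304656 to 124330527, plus strand), the receptor for haptoglobin-haemoglobin complexes on resident macrophages, had an interval of change below those of this pair. It had 54, 41 and 37 counts in infarcts, or 4.30, 3.01 and 2.53 CPM, and 53, 32 and 24 counts in contralateral cortices, or 2.77, 2.08 and 2.21 CPM. The lowest infarct lay below the highest contralateral cortex. The log2 fold change was 0.46 (SE 0.32, adjusted *p* = 0.228, edgeR), with a 95% interval of -0.26 to 1.19 that runs from a 0.837-fold to a 2.27-fold level, so neither no change nor a 2-fold rise lies outside it. Within libraries, *Cd163* gave 16.6, 15.0 and 17.4 counts per 100 *Mrc1* counts in contralateral cortices 1 to 3 and 1.93, 1.86 and 2.24 in infarcts 1 to 3. This pair was chosen after its values were seen, so no test is given, and the ratio does not depend on how libraries are scaled.

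*Cd68* (ENSMUSG00000018774, chromosome 11, 69664213 to 69666153, minus strand) encodes macrosialin, the usual histological marker of phagocytic microglia and macrophages. It had 123 (infarct 1), 104 (infarct 2) and 115 CPM (infarct 3), and 2.46, 1.43 and 1.94 CPM in contralateral cortices. The infarcts agreed within 1.19-fold, the least spread of the 9 detected genes. The log2 fold change was 5.86 (SE 0.21, 95% interval 5.39 to 6.32, adjusted *p* = 1.64e-07, edgeR), an interval above those of *Mrc1* and *Stab1* and below those of *Cd36* and *Msr1*. There were 9.33 to 13.5 *Cd68* counts per 100 *Cd36* counts in infarcts, against 46.8 to 54.0 contralaterally.

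**Figure D2:**
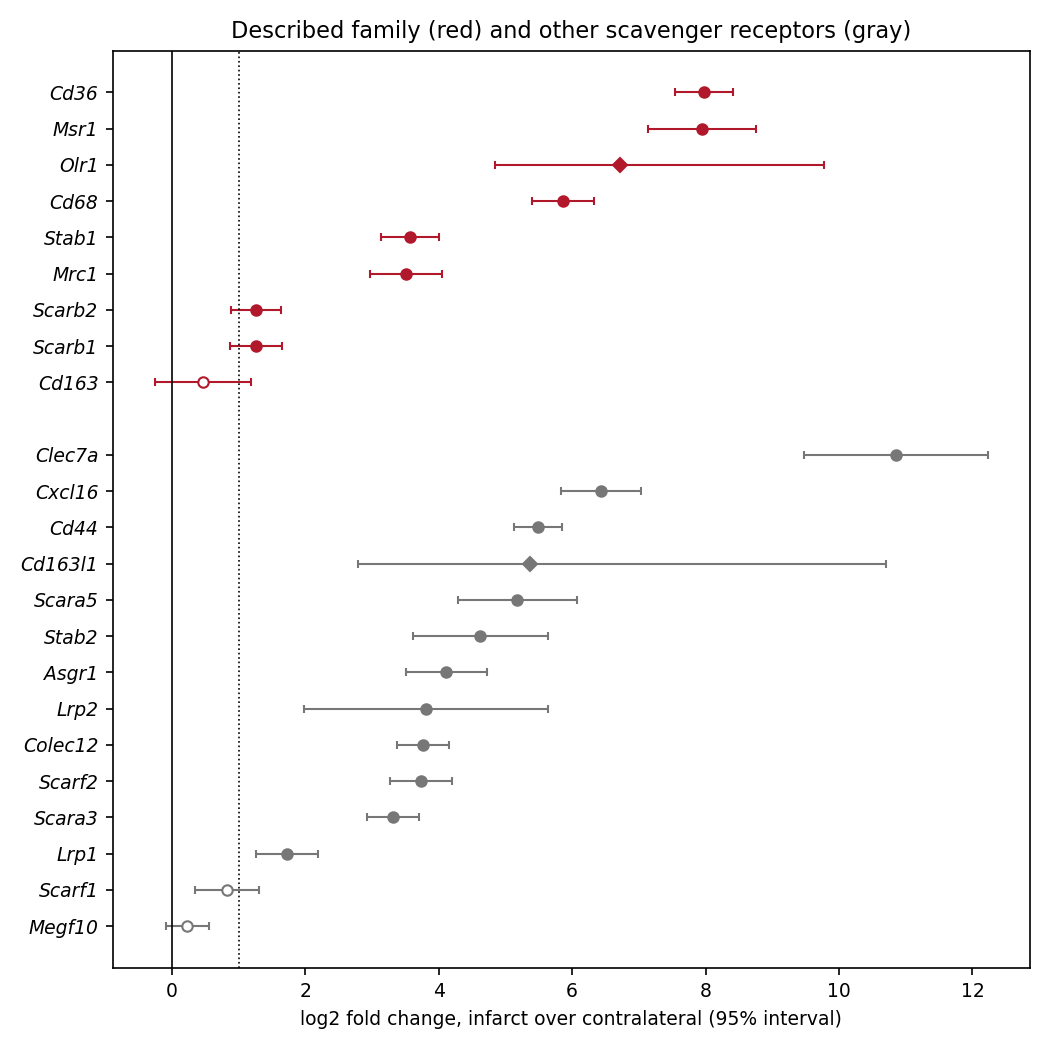
Log2 fold change of infarct over contralateral cortex (x axis) for the 9 tested receptor genes in red and for 14 other tested scavenger receptor genes in gray. Circles with bars are edgeR estimates with 95% intervals, filled where the gene was upregulated and open where it was not called, diamonds are pooled ratios with exact counting intervals for *Olr1* and *Cd163l1*, and the dotted line marks a log2 fold change of 1; *Cd36* and *Msr1* stand near 8 and *Cd163* spans 0, and the fitted values of *Clec7a* and *Lrp2* rest on at most 5 counts in any contralateral library.

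Genes were also compared by level per kilobase of exon (RPKM), the scale on which different genes can be set side by side. In contralateral cortices the highest was *Scarb2* at 32.9 ± 3.39 RPKM (mean ± SD, n = 3), far above the next, *Mrc1*, at 2.27 RPKM. *Mrc1*, *Scarb1*, *Stab1*, *Cd68* and *Cd36* followed each other down to 1.07 RPKM for *Cd36*, each overlapping its neighbor in that order. *Cd163* at 0.431 and *Msr1* at 0.0708 RPKM were each apart from their neighbors. In infarcts the order was led by *Cd36* at 270 ± 34.5 RPKM, apart from *Cd68* at 90.7 ± 7.95 and *Scarb2* at 78.6 ± 12.1 RPKM, which overlapped. *Mrc1* (26.0 ± 8.65 RPKM), *Stab1* (19.7 ± 5.31) and *Msr1* (17.5 ± 5.04) formed an overlapping group, and *Scarb1* (4.63 ± 0.485), *Olr1* (1.31 ± 0.190) and *Cd163* (0.600 ± 0.168) came below it, each apart from the next. Among all 15554 tested genes ranked by mean RPKM, *Cd36* stood at rank 11512 in contralateral cortices and at rank 64 in infarcts.

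The makeup of the receptor transcripts therefore differed between regions. *Scarb2* made up 74.4% to 81.1% of the summed RPKM of the 10 genes in contralateral cortices and 12.8% to 17.1% in infarcts. *Cd36* made up 2.06% to 3.22% in contralateral cortices and 47.7% to 58.7% in infarcts. The 10 genes summed to 245 to 284 CPM per contralateral library and to 1873 to 2293 CPM per infarct library.

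**Figure D3:**
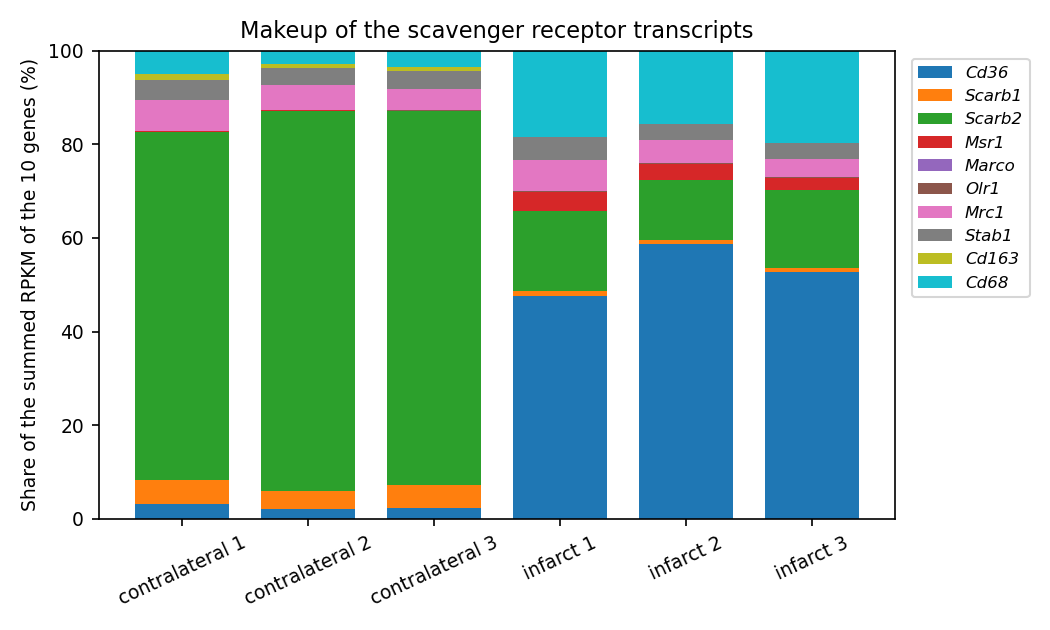
Share of each gene in the summed RPKM of the 10 receptor genes (y axis, percent), 1 stacked bar per library. *Scarb2* (green) fills most of each contralateral bar and *Cd36* (blue) is the largest part of each infarct bar; *Marco* is too low to be seen.

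The infarcts also differed among themselves. Of the 9 detected receptor genes, 6 were highest in infarct 1 and lowest in infarct 3, namely *Scarb1*, *Msr1*, *Olr1*, *Mrc1*, *Stab1* and *Cd163*, as was the sum of the microglia and macrophage markers. The highest infarct exceeded the lowest by 1.98-fold for *Mrc1* and 1.82-fold for *Msr1*, but by 1.36-fold for *Scarb2* and 1.26-fold for *Cd36*, which was highest in infarct 2. With any infarct or any contralateral cortex left out, 8 receptor genes were still upregulated.

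Because markers of microglia and macrophages rose with the receptors, the receptor counts were also divided by marker counts of the same library. All 12 marker genes shared by microglia and macrophages were upregulated, with a median log2 fold change of 4.63, beside 25.7% and 0.03 over all tested genes. *Cyba* (9, 5 and 3 contralateral counts) and *Aif1* (14, 14 and 8) passed the filter on low counts through the infarcts. Both could only be tested as higher there. The 12 genes differed widely: *Csf1r*, the receptor of the macrophage growth factor, had a log2 fold change of 1.96, and *Cyba*, a subunit of the phagocyte oxidase, had 6.28. Therefore, 3 denominators are given side by side: these 12 genes, *Csf1r* alone, and 10 genes of homeostatic microglia, of which 5 were upregulated and *P2ry12* and *Siglech* had log2 fold changes of -0.20 and 0.02. With 3 libraries against 3, the smallest *p* that an exact permutation test can give is 0.1, so no ratio could pass 0.05.

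*Cd36* gave 199, 321 and 274 counts per 1000 counts of the 12 markers in infarcts and 17.2, 13.9 and 13.1 in contralateral cortices. *Msr1* gave 30.6, 33.5 and 24.0 in infarcts and 1.38, 2.36 and 1.56 in contralateral cortices. *Cd68* gave 26.8, 30.0 and 35.7 in infarcts and 9.29, 6.50 and 6.57 in contralateral cortices. For these 3 genes every infarct was above every contralateral cortex, by 17.9-fold, 16.6-fold and 4.14-fold in the means (two-sided exact permutation *p* = 0.1 each). Per *Csf1r* count the ratio of means was 66.3-fold for *Cd36*, 61.8-fold for *Msr1* and 15.2-fold for *Cd68*, and per count of the homeostatic microglia genes, a denominator added after the values were seen, it was 85.9-fold, 83.0-fold and 19.9-fold. *Olr1* too was higher in every infarct by all 3 denominators, from 2 contralateral counts in all.

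*Scarb1*, *Scarb2* and *Cd163* were lower in every infarct than in any contralateral cortex by all 3 denominators. Each denominator was itself higher in infarcts: the 12 markers had a mean sum of 3759 against 260 CPM, the homeostatic genes 1015 against 344. A gene that rose less than its denominator gives a lower ratio, and the median log2 fold change over all tested genes was 0.03. How many other genes gave lower ratios was not counted, and the ratios do not measure RNA per cell. Per 1000 counts of the 12 markers, *Scarb2* gave 133 ± 15.6 in infarcts and 805 ± 135 in contralateral cortices (mean ± SD, n = 3), and *Cd163* gave 0.864 ± 0.0751 and 9.15 ± 1.51. Per *Csf1r* count the ratio of means was 0.606 for *Scarb2*, 0.621 for *Scarb1* and 0.350 for *Cd163*. Per count of the homeostatic microglia genes it was 0.806, 0.811 and 0.467 in the same order, and the nearest libraries almost met, at 540 in infarct 1 against 545 in contralateral cortex 1 for *Scarb2* and at 42.2 against 43.2 for *Scarb1* per 1000 such counts. For *Mrc1* and *Stab1* the direction depended on the denominator. Per count of the 12 markers the ratio of means was 0.768 for *Mrc1*, with overlapping regions (two-sided exact permutation *p* = 0.3), and 0.808 for *Stab1*, lower in every infarct (*p* = 0.1, exact). Per *Csf1r* count it was 2.86 for *Mrc1* and 3.00 for *Stab1*, higher in every infarct.

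**Figure D4:**
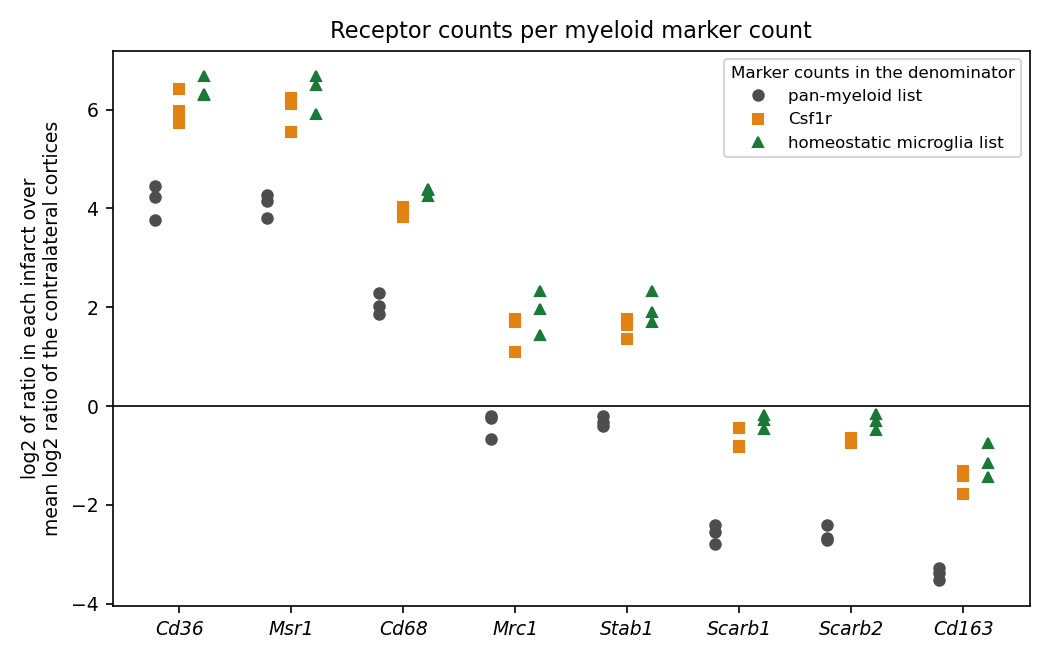
Log2 of the receptor-to-marker count ratio in each of the 3 infarcts minus the mean log2 ratio of the 3 contralateral cortices (y axis), for 8 receptor genes and 3 denominators. Each symbol is 1 infarct; *Cd36*, *Msr1* and *Cd68* lie above 0 and *Scarb1*, *Scarb2* and *Cd163* below 0 for every denominator, while *Mrc1* and *Stab1* change side.

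Several receptors are also found on other cells, so markers of those cells are given. *Cd36* is abundant in adipocytes, skeletal muscle, platelets and capillary endothelium. None of 6 adipocyte markers was high enough to test, they summed to at most 0.614 CPM in any library, and *Cidec* and *Cfd* had no counts. The 6 platelet markers summed to 4.78 to 6.69 CPM in infarcts and to 5.99 to 9.19 in contralateral cortices, and the 6 skeletal muscle markers to 0.876 to 2.42 and to 9.77 to 12.2 contralaterally. Only 3 platelet markers and 1 muscle marker were high enough to test, and none of them was upregulated. Both contralateral sums were carried by 1 gene each, *Gp1bb* for platelets (132, 75 and 64 contralateral counts) and *Acta1* for muscle (210, 139 and 121), and both genes were downregulated. Of the 6 platelet markers 4 were higher in every infarct, a pattern that 37.6% of all tested genes showed. *Ppbp* was among the 4, with 10, 8 and 17 counts in infarcts and 0 in each contralateral cortex. The part of platelets in the *Cd36* level was not tested. Of 10 endothelial markers 5 were upregulated, beside 25.7% of all tested genes, and the list summed to 671 to 960 CPM in infarcts and to 384 to 433 in contralateral cortices. The part of endothelium in the rise of *Cd36*, *Scarb1*, *Olr1* and *Stab1* was not tested.

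Macrophages of the brain borders carry *Mrc1*, *Stab1* and *Cd163*. The lists that follow are read against the 25.7% of all tested genes that were upregulated and the 20.9% that were downregulated. Of 10 other markers of border macrophages, 9 were upregulated and *Cd209f* was too low to test, and they summed to 495 to 695 CPM in infarcts and to 28.6 to 32.4 in contralateral cortices. Of these 9, *Pf4*, *Folr2*, *Cbr2*, *Ms4a7*, *Clec10a*, *Lyve1* and *Siglec1* passed the filter on low counts through the infarcts. They could only be tested as higher there. *Colec12* of this list is itself a scavenger receptor and is counted again among those below. *Lyve1*, which the lymphatic list also holds, had a log2 fold change of 2.09, while *Ms4a7* had 7.88 and *Siglec1* 7.63. Markers of monocytes and neutrophils summed to 151 to 293 CPM in infarcts and to 1.17 to 2.95 in contralateral cortices. Of these 8 genes 6 were upregulated, all of which passed the filter through the infarcts. *S100a8* was among them, with 120, 118 and 91 counts in infarcts and 2, 5 and 6 contralaterally. So was *S100a9*, with 31, 10 and 14 against 0, 2 and 0, while *Ly6g* and *Mpo* were too low to test. Of 8 dendritic cell markers 5 were upregulated (324 to 497 CPM in infarcts, 41.6 to 45.1 in contralateral cortices), with *Itgax*, which macrophages also express, at 334 of the mean 395 CPM in infarcts. *Xcr1* had 100, 99 and 45 counts in infarcts and 0, 1 and 0 contralaterally. *Clec9a* had 166, 185 and 126 against 4, 5 and 3, and *Ccr7* had 77, 47 and 41 against 0, 0 and 1. *Xcr1*, *Clec9a*, *Ccr7*, *Cd209a* and *Itgax* were the 5 upregulated genes of this list, and all passed the filter through the infarcts. *Flt3* (log2 fold change -0.54) and *Zbtb46* (-0.39, lower in every infarct) were not called. Upregulated too were 4 of 7 markers of lymphatic and sinusoidal endothelium (121 to 149 and 36.9 to 47.0 CPM), a site of *Stab1*, and 5 of the 7 were tested. Of the 4, *Ccl21a* (0, 0 and 2 contralateral counts) and *Lyve1* passed the filter through the infarcts and could only be tested as higher there. All 8 fibroblast markers were upregulated and summed to 6969 to 8713 CPM in infarcts and to 162 to 205 in contralateral cortices. All 10 neuronal markers were downregulated, and of 8 markers each, 4 of oligodendrocytes and 2 of astrocytes were upregulated and 1 of astrocytes was downregulated. The part of each cell type in the receptor levels was not tested.

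**Figure D5:**
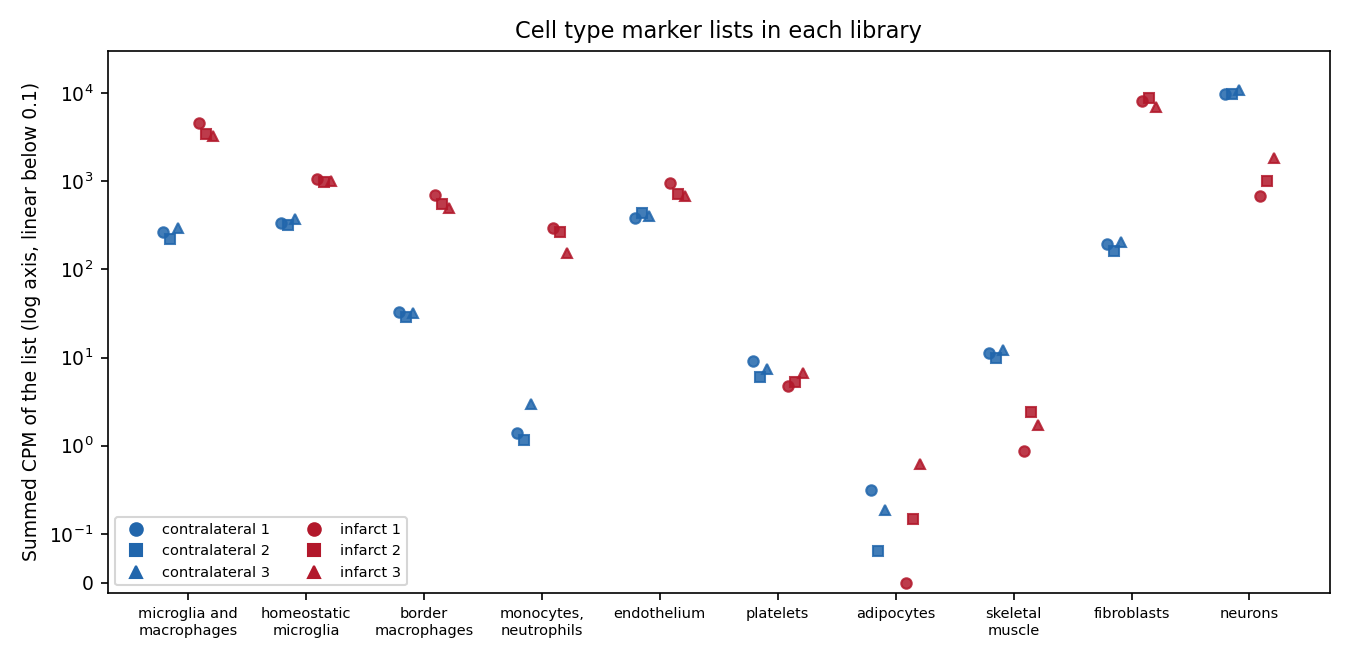
Summed CPM of the marker genes of 10 cell types (x axis) in each library, on an axis that is logarithmic above 0.1 and linear below it, with blue contralateral cortices and red infarcts. Macrophage, monocyte and fibroblast markers were higher in the 3 infarcts, neuronal markers were lower, and adipocyte markers stayed below 1 CPM in all 6 libraries.

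Most other scavenger receptor genes were upregulated as well. Of 15 such genes 14 were tested and 12 were upregulated, none was downregulated, and the median log2 fold change was 3.97, against 25.7% and 0.03 over all tested genes. *Clec7a*, the beta-glucan receptor dectin-1 that disease-associated microglia also express, had 4428, 4112 and 3631 counts in infarcts and 2, 5 and 0 contralaterally, or 301 ± 52.4 and 0.143 ± 0.166 CPM (adjusted *p* = 1.64e-07, edgeR). Like *Msr1* and *Olr1*, it passed the filter through the infarcts and could only be tested as higher there. The same holds for *Cd163l1*, *Lrp2*, *Stab2* (6, 8 and 10 contralateral counts), *Asgr1* (14, 11 and 12 contralateral counts) and *Scara5* (25, 6 and 11 contralateral counts). *Cxcl16*, a chemokine that also binds oxidized LDL in its membrane form, rose by 6.44 on the log2 scale, and *Cd44*, the hyaluronan receptor, by 5.49. The class A genes *Scara5*, *Colec12* and *Scara3* rose by 5.18, 3.76 and 3.32, and *Stab2*, the paralog of *Stab1*, by 4.62. *Lrp1*, a large receptor for lipoproteins that neurons and glia share, rose by 1.72. *Cd163l1*, the nearest relative of *Cd163* on the list, had 37 counts in the infarcts and 1 in the contralateral cortices, a 41.1-fold pooled ratio of scaled counts with an exact 95% counting interval of 6.93 to 1666. *Scarf1* (0.82, adjusted *p* = 0.00697, edgeR) and *Megf10* (0.23, adjusted *p* = 0.176, edgeR), an astrocyte receptor for dying cells, were not called, and *Ager* was too low to test.

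Of 15 genes of ligands, cofactors and downstream partners of the receptors, 14 were tested and 12 were upregulated, with a median log2 fold change of 3.66, beside 25.7% and 0.03 over all tested genes. The CD36 ligands *Thbs1* and *Thbs2*, which encode thrombospondins, had log2 fold changes of 3.82 and 4.10, and the CD36 co-receptors *Tlr4* and *Tlr6* had 4.27 and 3.84. Of the kinases that act downstream of CD36, *Lyn* rose by 3.49 on the log2 scale with the exchange factor *Vav1* at 4.33. *Fyn* was at 75.4 ± 7.50 CPM in infarcts and at 101 ± 5.60 CPM contralaterally, and its log2 fold change of -0.42 (adjusted *p* = 0.0219, edgeR) did not reach the 2-fold limit. *Sparc*, the stabilin-1 ligand, rose by 3.40, while *Chid1*, the chitinase-like partner of stabilin-1, had -0.17 (adjusted *p* = 0.405, edgeR).

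For *Cd163*, which was not called, the genes around it were. *Hmox1*, the haem oxygenase that breaks down the haem taken up through CD163, rose by 4.72 on the log2 scale, to 38.5 ± 5.95 CPM in infarcts from 1.54 ± 0.909 CPM contralaterally. *Hp*, which encodes haptoglobin, had 81 counts in infarcts and 1 in contralateral cortices, a 90.0-fold pooled ratio with an exact 95% counting interval of 15.7 to 3596. It passed the filter on low counts through the infarcts and could only be tested as higher there. *Tnfsf12*, which encodes the CD163 ligand TWEAK, rose by 2.85, and *Adam17*, the sheddase that cuts CD163 from the membrane, rose by 2.94. *Pdzk1*, the adaptor that holds the *Scarb1* product in the liver cell membrane, was too low to test.

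Of 10 genes of transcription factors of macrophages, lipid sensing and lysosomes, all 10 were upregulated, with a median log2 fold change of 2.79, beside 25.7% and 0.03 over all tested genes. The count was 8 when at least 10 counts were asked of every library, since *Spi1* (11, 7 and 7 counts) and *Cebpb* (11, 4 and 7 counts) were low in the contralateral cortices. Both genes passed the filter on low counts through the infarcts, so they could only be tested as higher there. *Spi1*, which encodes the myeloid factor PU.1, rose by 4.80 on the log2 scale, from 0.559 ± 0.0961 to 15.6 ± 1.84 CPM. *Cebpa* rose by 4.11 and *Cebpb* by 2.41. The lipid sensors *Nr1h3* and *Pparg*, of which the latter is known to activate *Cd36*, rose by 3.61 and 2.21, and *Nfe2l2*, the oxidative stress factor, by 3.47. *Maf*, a factor of resident macrophages, rose by 1.41, and the lysosomal factors *Tfeb* and *Mitf* by 2.53 and 2.51.

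The promoters of the receptors are shown for the letters of motifs that *Spi1* and other factors of macrophages bind. RefSeq windows on GRCm38.p6 from 250 bases before to 50 bases after the start site were at hand for 8 of the 10 genes, all but *Msr1* and *Scarb1*. In all, 4 motifs were searched on both strands after the expression values were known: the AP-1 motif TGANTCA, the PU.1 core GAGGAA, the direct repeat bound by PPAR factors and the E-box CACGTG. The AP-1 motif was in 2 of 8 windows and in 7.81% of 32851 RefSeq promoters, the PU.1 core in 5 of 8 and in 28.3%, and the direct repeat (0.0396% of promoters) and the E-box (7.15%) were in none of the 8. No matches overlapped. The windows are printed 5′ to 3′ on the strand of the gene, with AP-1 and PU.1 core matches in capitals. *Cd68* and *Olr1* hold both motifs, *Mrc1* holds the PU.1 core 3 times and *Cd36* holds neither; in order they lie at chr11:69666121-69666420, chr6:129507116-129507415, chr2:14229164-14229463 and chr5:17835847-17836146.
Cd68: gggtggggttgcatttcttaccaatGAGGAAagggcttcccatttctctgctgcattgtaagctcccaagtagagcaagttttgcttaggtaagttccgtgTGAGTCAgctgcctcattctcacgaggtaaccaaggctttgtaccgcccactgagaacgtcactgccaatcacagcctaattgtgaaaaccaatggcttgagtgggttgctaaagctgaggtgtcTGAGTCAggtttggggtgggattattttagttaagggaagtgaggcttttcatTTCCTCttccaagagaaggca
Olr1: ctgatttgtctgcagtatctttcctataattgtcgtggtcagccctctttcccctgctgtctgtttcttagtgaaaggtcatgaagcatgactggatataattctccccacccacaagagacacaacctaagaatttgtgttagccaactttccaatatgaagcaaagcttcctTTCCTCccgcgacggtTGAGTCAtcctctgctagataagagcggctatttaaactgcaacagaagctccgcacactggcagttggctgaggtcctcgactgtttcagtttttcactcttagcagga
Mrc1: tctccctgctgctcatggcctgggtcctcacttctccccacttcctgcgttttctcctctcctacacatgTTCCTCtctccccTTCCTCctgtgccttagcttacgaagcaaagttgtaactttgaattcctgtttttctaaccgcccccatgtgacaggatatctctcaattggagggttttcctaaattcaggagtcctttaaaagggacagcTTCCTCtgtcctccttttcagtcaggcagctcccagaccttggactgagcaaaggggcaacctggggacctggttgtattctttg
Cd36: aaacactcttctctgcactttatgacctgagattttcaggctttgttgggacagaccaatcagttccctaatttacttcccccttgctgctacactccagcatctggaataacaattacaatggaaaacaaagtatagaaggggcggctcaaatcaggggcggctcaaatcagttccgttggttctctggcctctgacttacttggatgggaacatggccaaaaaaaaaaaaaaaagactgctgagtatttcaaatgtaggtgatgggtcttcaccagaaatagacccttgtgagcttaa

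The *Cd68* window holds AP-1 matches that begin at 149 and 24 bases before the start site, and PU.1 core matches that begin 225 bases before it and 30 bases into the transcript. The *Olr1* window holds a PU.1 core at 76 and an AP-1 match at 60 bases before the start. *Stab1* and *Marco* hold 1 PU.1 core each, so *Marco*, with 2 counts in all, shares this motif with the strongly upregulated *Cd68*. *Scarb2* and *Cd163* hold none of the 4 motifs. The *Cd36* window is placed around a start site 52905 bases inside the outermost start annotated by GENCODE. The *Scarb2* window is placed around a start site 1176 bases inside its outermost start. For neither gene do the counts show which start was used. A match is a description of the letters in a window and not evidence of binding.

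The genes whose pattern over the 6 libraries lay nearest to 3 of the receptors were found among 14174 protein-coding genes, by the root mean square distance between log2 CPM values centered on each gene's mean. *Cd36* was nearest to *Ms4a7* (0.281), a macrophage membrane gene, *Il7r* (0.291), the interleukin-7 receptor, and *Cd300ld* (0.296), a myeloid receptor of the CD300 family. *Ms4a7* had 132 CPM in infarcts and 0.555 in contralateral cortices, and *Il7r* had 269 and 1.15. *Cd300ld* had 32.6 and 0.0482 CPM, and its log2 fold change was 9.27, against 7.98 for *Cd36*. The log2 values include a small added count, which draws together genes near the detection limit. *Scarb1* was nearest to *Arf4* (0.0370), *Mybbp1a* (0.0646) and *Hs1bp3* (0.0674), whose log2 fold changes ran from 1.21 to 1.31. *Cd163* was nearest to *Itga3* (0.0861), *Zfp961* (0.0894) and *Rpa3* (0.0921), whose log2 fold changes ran from 0.33 to 0.53 and none of which is a macrophage marker.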

How the data were processed

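Raw read counts per Ensembl gene were deposited for each library. Per the labels and the methods of the study, the authors made stranded mRNA libraries, trimmed paired reads with Trimmomatic 0.32, aligned them to GRCm38 with STAR 2.5.2b and counted with HTSeq, whose version, annotation and strand setting are not given in the sources used here. Each table ends in 5 tallies of reads assigned to no gene, which were excluded (26.6% to 34.3% of tallied reads). Symbols and positions came from GENCODE M21 (45229 of 46078 identifiers matched).

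Counts were analyzed with edgeR 4.0.16 in R 4.3.3 (filterByExpr, TMM, glmQLFit with robust dispersions, glmQLFTest, region as the only term), with Benjamini-Hochberg adjustment over 15554 genes. Biological coefficient of variation was 0.220. Standard errors and 95% intervals are Wald values from the fit. CPM use TMM-scaled library sizes, and RPKM divide CPM by the union of exons. In simulated data for this comparison with 200 of 15320 genes changed 4-fold, 192 of these and 5 unchanged genes were called. The simulation changed far fewer genes than were called here and gave every gene the same dispersion, so its rates need not hold for these data. Alternatives were DESeq2 1.42.0, limma voom 3.58.1, other scalings and filters, a replicate block and leaving out each library. The 10 genes, the other lists and the genes named from them were chosen with earlier results of these data known, nearest patterns were the 3 protein-coding genes at the least distance, and promoter sequences came from RefSeq (GRCm38.p6). Some genes counted in the lists are not reported here by name.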

Additional observations from a re-analysis of the deposited data

How the results depend on the processing

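With DESeq2, limma voom, RLE, upper quartile or library total scaling, no filter on low counts and no fold threshold, 8 receptor genes were upregulated, as they were without any 1 library, and none was downregulated. The count was 6 with at least 10 counts asked of every library, where *Msr1* and *Olr1* could not enter, and 6 with glmTreat, where *Scarb1* and *Scarb2* were lost. *Cd163* was called by none of these (adjusted *p* 0.0955 to 1.0, log2 fold change 0.41 to 0.66, and 0.24 to 0.64 without 1 library). With at least 10 counts in every library, 7 of the other scavenger receptor genes were upregulated, since fewer could be tested, and with no fold threshold 1 partner gene (*Fyn*) was downregulated. Scaling by library totals moved the median of all genes from 0.03 to 0.23. *Stab1* per marker count turned from lower to higher with *Csf1r* (log2 1.59) or the homeostatic microglia genes (log2 2.0) as the denominator. Without contralateral replicate 3, no ratio could be given for *Olr1*, which then had no contralateral count.

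Same-numbered infarct and contralateral libraries had deviations that correlated at r = -0.19, 0.10 and 0.00 across genes. Whether equal numbers mark 1 mouse is unknown. With a replicate block, 8 receptor genes, 12 other scavenger receptor genes, 12 partner genes and 10 transcription factor genes were upregulated and none was downregulated, and 3945 genes in all were upregulated and 3222 downregulated. The sample size of 3 per region and the low counts of *Olr1*, *Cd163* and *Marco* limit what could be seen.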
